A study of Mus musculus with 12 samples.

Results

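The common gamma chain receptors and their kinases were followed through donor T cells of TCF-1 cKO and WT mice before and after an allogeneic transplant. The 9 genes described are the shared receptor chain Il2rg, the private receptor chains Il2ra, Il2rb, Il4ra, Il7r, Il15ra and Il21r, and the kinases Jak1 and Jak3. They were taken by symbol, with no threshold on measured values, from 35907 genes in the deposited tables, and all 9 passed the filter on low counts in every comparison.

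The data are RNA sequencing libraries, 12 in all, with 3 to each of 4 groups. WT Pre-Tx libraries are given as splenic donor T cells of WT mice taken before transplant. TCF-1 cKO Pre-Tx libraries are given as the same cells of mice with a floxed Tcf7 gene and a Cre recombinase under the Cd4 promoter. These mice are labelled TCF-7 cKO. This Cre acts in the thymus, so both CD4 and CD8 T cells of these mice lose TCF-1. WT Post-Tx and TCF-1 cKO Post-Tx libraries hold donor cells of each genotype sorted back from the spleen at day 7 after transplant into lethally irradiated BALB/c mice, which also received WT bone marrow depleted of T cells. Donors were on a C57BL/6 background, the labels give no age, and the cKO differed from WT by the floxed allele and the Cre together. The labels call all 12 libraries CD4 T cells, whereas the design text names CD8 T cells for Pre-Tx and both kinds for Post-Tx. The labels number biological replicates without naming the mouse or mice behind a library, so p-values measure the spread between these libraries.

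Cytokines of this family share a receptor chain, the common gamma chain encoded by Il2rg, and differ in the private chains that pair with it. The private chains that signal mainly bind JAK1, and the common gamma chain binds JAK3. The paired kinases phosphorylate STAT proteins, chiefly STAT5 for IL-2, IL-7 and IL-15, STAT6 for IL-4 and STAT3 for IL-21. In T cells these receptors carry signals for survival, clonal expansion and memory, and loss of the common gamma chain or of JAK3 causes severe combined immunodeficiency.

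The 12 libraries held 17103415 to 49486745 counts each, and the deepest libraries were the WT Post-Tx ones with 27109156 or more. Tcf7 transcripts were not lower in TCF-1 cKO Pre-Tx with a log2 fold change of -0.04, its standard error (SE) being 0.22 and adjusted p = 0.923. Post-Tx the log2 fold change was -0.66 (SE 0.22, adjusted p = 0.0618 by edgeR's quasi-likelihood test), not under 0.05. Whole-transcript counts need not show the loss of a floxed part, and genotypes are given as labelled. Cd4 stood at 19.9 to 51.1 TPM (transcript abundance scaled for length and library total) and Cd8a at 35.1 to 76.7 TPM in the Pre-Tx libraries, and at 263 to 454 TPM and 0.416 to 7.09 TPM in the Post-Tx libraries. T cell markers were present in every library, but all 12 B cell markers were also present in the Pre-Tx libraries, at a summed level of 7923 to 10774 CPM (counts scaled to the library total) against 53.3 to 132 CPM Post-Tx. The 10 T cell markers summed to 2547 to 2979 CPM in WT Pre-Tx, against 1319 to 1475 CPM in TCF-1 cKO Pre-Tx. In every Pre-Tx library they thus summed to less than the 12 B cell markers. After transplant they summed to 6812 to 8309 CPM in WT and 5195 to 5594 CPM in TCF-1 cKO. The summed level of the 6 NK cell markers was 222 to 296 CPM in TCF-1 cKO against 91.7 to 121 CPM in WT Pre-Tx and 115 to 149 CPM against 61.6 to 95.1 CPM Post-Tx, with Klra8 at 0 in WT Post-Tx, and 2 of 6 were called higher Pre-Tx and 0 of 5 tested Post-Tx. The 6 erythroid markers summed to 4516 to 26122 CPM Pre-Tx, and to 709 to 1481 CPM in WT and 1645 to 5745 CPM in TCF-1 cKO Post-Tx. The 8 myeloid markers summed to 2591 to 3593 CPM Pre-Tx, and to 578 to 629.6 CPM in WT and 866 to 1183 CPM in TCF-1 cKO Post-Tx. Olfactory receptors, a family that is silent in T cells, summed to 2532 to 7011 CPM in WT Pre-Tx and to 879 to 1549.7 CPM in TCF-1 cKO Pre-Tx. In the Post-Tx libraries the order was the other way round, with 1087 to 3135 CPM in WT and 4484 to 12030.5 CPM in TCF-1 cKO. All of these lists thus moved with genotype or stage, and their part in the results below was not tested.

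By GENCODE M21 on GRCm38, 4 of the genes lie in pairs. Il2ra (chr2:11642807-11693193) and Il15ra (chr2:11705290-11734317) lie on the same strand with 12.1 kb between them. Il4ra (chr7:125552120-125579474) and Il21r (chr7:125603429-125633570) lie on the same strand with 24.0 kb between them. The other genes stand alone, Il2rb at chr15:78479256-78495271, Il2rg at chrX:101264378-101268255, Il7r at chr15:9505788-9530176, Jak1 at chr4:101152367-101265282 and Jak3 at chr8:71676296-71690575.

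RefSeq promoters (GRCm38.p6) were found for 8 of the 9 genes, all but Il2rb. The 250 bases before each start were searched on both strands for CTTTGAA, the core that TCF-1 and its relatives are known to bind, and for TTCNNNGAA, the core bound by STAT5. CTTTGAA was found only in the Il15ra promoter of these 8, and 4.46% of all 32851 promoters hold it. TTCNNNGAA was found only in the Il7r promoter of these 8, and 7.02% of all promoters hold it. The third motif searched, TGTGGT, the core bound by RUNX factors, was found in the Il2rg and Il21r promoters and in 14.0% of all promoters. The first 2 matches are shown because TCF-1 is the factor deleted here and STAT5 the main factor that the IL-2, IL-7 and IL-15 receptors activate. Each is printed on the strand of its gene, plus for Il15ra and minus for Il7r, with the matched letters in capitals. CTTTGAA lies on the minus strand, so its complement is seen in the Il15ra line. They are matches of letters and not measured binding sites. The starts are those of RefSeq, and both windows lie inside the GENCODE M21 bounds given above for these genes, downstream of the GENCODE starts.
Il15ra promoter, chr2:11705498-11705527, match 203 to 197 bases before the start: cgcagagtggaTTCAAAGgagtttgcctct
Il7r promoter, chr15:9529999-9530028, match 142 to 134 bases before the start of this minus-strand gene: gttcaggagcTTCAGGGAAtaccaagatgc

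Levels are given in TPM, which can be set side by side between genes. The common gamma chain was the highest of the 9 genes in every library. Il2rg TPM were 602, 703 and 494 in WT Pre-Tx, against 876, 824 and 847 in TCF-1 cKO Pre-Tx. After transplant Il2rg TPM were 2114, 2085 and 1934 in WT and 1589, 1468 and 1754 in TCF-1 cKO. The genotypes did not overlap at either stage, and TCF-1 cKO stood above WT before transplant and below it after.

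Il2rb encodes the chain that the IL-2 and IL-15 receptors share, and it was the highest private chain after transplant. Il2rb TPM were 107, 121 and 96.7 in WT Pre-Tx, against 98.2, 102 and 120.3 in TCF-1 cKO Pre-Tx. After transplant they were 808, 635 and 659 in WT and 559, 489 and 525 in TCF-1 cKO. The genotypes overlapped before transplant, and every WT library stood above every TCF-1 cKO library after it.

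Il2ra encodes CD25, which raises the affinity of the IL-2 receptor and marks activated and regulatory T cells, and it was the lowest of the 9 genes before transplant. Il2ra TPM were 1.87, 2.29 and 2.25 in WT Pre-Tx, against 5.89, 3.91 and 1.17 in TCF-1 cKO Pre-Tx. After transplant they were 36.4, 30.7 and 32.2 in WT and 28.7, 25.3 and 28.5 in TCF-1 cKO. The TCF-1 cKO Pre-Tx libraries spread over both sides of the WT ones, and after transplant WT stood above TCF-1 cKO. Foxp3, which defines regulatory T cells, stood at 3.60 to 13.5 TPM in WT Post-Tx and 6.59 to 12.8 TPM in TCF-1 cKO Post-Tx, so the genotypes overlapped for it.

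Il15ra encodes the chain that binds IL-15 and presents it to other cells. Il15ra TPM were 6.23, 5.78 and 6.85 in WT Pre-Tx, against 11.1, 11.03 and 11.8 in TCF-1 cKO Pre-Tx. After transplant they were 35.8, 24.6 and 31.3 in WT and 15.9, 42.4 and 34.6 in TCF-1 cKO. TCF-1 cKO stood above WT before transplant, and after transplant the TCF-1 cKO libraries lay on both sides of the WT ones.

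Il7r encodes CD127, the IL-7 receptor chain of naive and memory T cells, and its replicates were far apart. Il7r TPM were 13.0, 13.1 and 4.24 in WT Pre-Tx, against 36.7, 22.7 and 21.4 in TCF-1 cKO Pre-Tx. After transplant they were 36.6, 84.8 and 73.6 in WT and 21.1, 24.1 and 69.4 in TCF-1 cKO. Every TCF-1 cKO library stood above every WT library before transplant. After it, TCF-1 cKO replicate 3 stood among the WT libraries and the other two stood below them.

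Il4ra encodes the private chain for IL-4, and also serves IL-13. Its TPM were 86.4, 128 and 108 in WT Pre-Tx, against 107, 80.6 and 103 in TCF-1 cKO Pre-Tx. After transplant they were 36.0, 35.1 and 32.4 in WT and 28.4, 44.7 and 34.7 in TCF-1 cKO. The genotypes overlapped at both stages, and every Post-Tx library stood below every Pre-Tx library.

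Il21r encodes the IL-21 receptor chain. Its TPM were 120.5, 144 and 98.8 in WT Pre-Tx, against 188, 127 and 183 in TCF-1 cKO Pre-Tx. After transplant they were 143, 96.0 and 109 in WT and 89.5, 69.8 and 103 in TCF-1 cKO. The genotypes overlapped at both stages, and the WT libraries overlapped between the stages.

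Of the kinases, Jak1 TPM were 60.2, 93.8 and 29.97 in WT Pre-Tx, against 196, 132 and 142 in TCF-1 cKO Pre-Tx. After transplant Jak1 TPM were 139.8, 182 and 176 in WT and 139, 89.7 and 156 in TCF-1 cKO. The WT Pre-Tx libraries stood below those of TCF-1 cKO Pre-Tx and WT Post-Tx, and the TCF-1 cKO libraries overlapped between the stages. Jak3 TPM were 46.4, 63.9 and 54.8 in WT Pre-Tx, against 45.3, 37.7 and 45.2 in TCF-1 cKO Pre-Tx. After transplant Jak3 TPM were 145, 129 and 142 in WT and 100.2, 72.4 and 72.0 in TCF-1 cKO. For Jak3 the TCF-1 cKO libraries stood below the WT libraries at both stages.

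**Figure D1:**
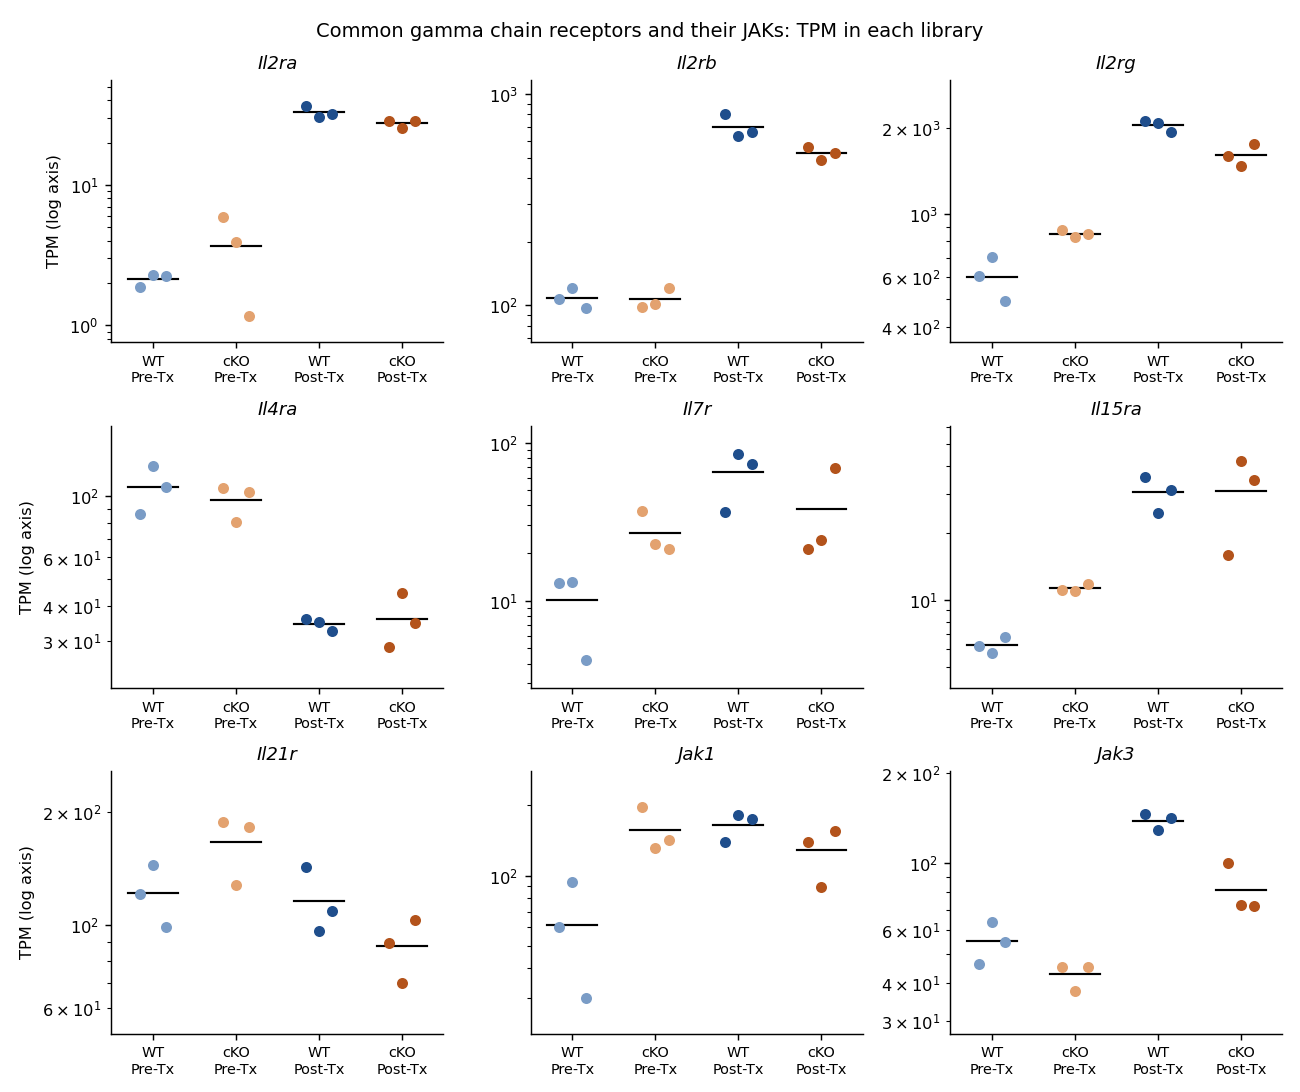
TPM of each of the 9 genes on a log axis, with 1 point for each of the 3 libraries of a group and a line at the group mean. Post-Tx points stand above Pre-Tx points of the same genotype for Il2ra, Il2rb, Il2rg, Il15ra and Jak3 and below them for Il4ra, and TCF-1 cKO points stand below WT points after transplant for Il2ra, Il2rb, Il2rg and Jak3.

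The order of the genes by mean TPM changed with transplant. In WT Pre-Tx, Il2rg (599.8 ± 105 TPM, SD, n = 3) was followed by Il21r (121 ± 22.8), Il2rb (108 ± 11.98), Il4ra (107 ± 21.0), Jak1 (61.3 ± 31.9) and Jak3 (55.0 ± 8.80), and each of these last 5 overlapped with its neighbour in the order. Il7r (10.1 ± 5.09), Il15ra (6.29 ± 0.537) and Il2ra (2.14 ± 0.229) came last, and only Il7r and Il15ra overlapped among them. In TCF-1 cKO Pre-Tx the order was the same except that Jak1 (157 ± 34.5 TPM, n = 3) came next after Il21r (166 ± 33.5), overlapping with it and apart from Il2rb (107 ± 11.9).

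In WT Post-Tx, Il2rg (2044 ± 96.3 TPM, SD, n = 3) and Il2rb (701 ± 93.8) led and stood apart from each other and from the rest. Jak1 (166 ± 22.6), Jak3 (138 ± 8.64) and Il21r (116 ± 24.2) followed with overlapping neighbours, then Il7r (65.0 ± 25.2). Il4ra (34.5 ± 1.87), Il2ra (33.1 ± 2.95) and Il15ra (30.6 ± 5.64) were lowest and overlapped with their neighbours. In TCF-1 cKO Post-Tx, Il2rg (1604 ± 144 TPM, n = 3) and Il2rb (524 ± 35.0) led in the same way, and Il21r (87.5 ± 16.7) and Jak3 (81.5 ± 16.1) exchanged places, as did Il15ra (30.9 ± 13.6) and Il2ra (27.5 ± 1.91), which overlapped.

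In WT cells, 7 of the 9 genes were upregulated from Pre-Tx to Post-Tx and 1, Il4ra, was downregulated. Among all 21434 genes tested, 22.0% were called at an adjusted p under 0.05, 11.7% higher and 10.3% lower. Stage, host, sort and cell make-up changed together here, so that these cannot be told apart, and in bulk RNA fewer cells of a type and less RNA per cell cannot be told apart either. In both genotypes all 12 B cell markers and all 6 erythroid markers were called lower Post-Tx. So were 3 of 8 myeloid and 3 of 6 NK cell markers in WT and 5 of each in TCF-1 cKO.

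Il2ra, with the largest fold of the 9 genes, rose 12.3-fold (log2 fold change 3.63, SE 0.34, adjusted p = 4.96e-07 by edgeR's quasi-likelihood test, used throughout), Il2rb 5.09-fold (2.35, 0.20, 1.85e-07) and Il2rg 2.58-fold (1.37, 0.18, 1.79e-05). Il7r rose 4.73-fold (2.24, 0.49, adjusted p = 0.00461) and Il15ra 3.21-fold (1.68, 0.38, adjusted p = 0.00376). Of the kinases, Jak1 rose 2.05-fold (log2 fold change 1.04, SE 0.33, adjusted p = 0.0315) and Jak3 1.89-fold (0.92, 0.23, 0.00705). Il4ra fell 4.30-fold (log2 fold change -2.10, SE 0.23, adjusted p = 3.04e-06). The TPM of 8 of the 9 genes did not overlap between the stages, 7 higher and 1 lower, where 38.1% of all genes tested did not, 25.3% higher and 12.8% lower. Il21r was not called (log2 fold change -0.49, SE 0.24, adjusted p = 0.156).

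In TCF-1 cKO cells, 3 genes rose and 3 fell with transplant, where 26.6% of all genes tested were called, 14.0% higher and 12.6% lower. Il2ra rose 6.90-fold (log2 fold change 2.79, SE 0.33, adjusted p = 8.65e-06), Il2rb 3.42-fold (1.77, 0.20, 5.11e-06) and Il15ra 2.08-fold (1.06, 0.38, 0.0447). Il4ra fell 4.04-fold (log2 fold change -2.01, SE 0.23, adjusted p = 5.9e-06) and Il21r 2.74-fold (-1.46, 0.25, 0.000364). Jak1 fell 1.91-fold on the scaled counts (log2 fold change -0.93, SE 0.33, adjusted p = 0.0442), although its TPM overlapped between the stages. The TPM of 7 of the 9 genes did not overlap, 5 higher and 2 lower, where 51.3% of all genes tested did not, 42.2% higher and 9.09% lower. Il2rg (log2 fold change 0.39, adjusted p = 0.0964), Jak3 (0.39, 0.192) and Il7r (-0.05, 0.945) were not called.

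These values rest on TMM scaling, and the median gene moved by -0.41 in WT and 0.36 in TCF-1 cKO on the log2 scale. With upper-quartile scaling the medians were -0.71 and 0.73, and all genes called higher and lower numbered 1856 and 3210 in WT against 2509 and 2199 with TMM, and 4436 and 1643 in TCF-1 cKO against 3002 and 2709. On log2(TPM + 1), tested with limma, Il2rg and Jak3 were also upregulated in TCF-1 cKO (log2 fold changes 0.91 and 0.90, adjusted p = 0.000155 and 0.00327) and Jak1 was not called (-0.30, adjusted p = 0.496). Setting the summed counts of the CD3 chains Cd3d, Cd3e and Cd3g equal between libraries turned the sign of Il2rg, Jak1 and Jak3 in WT (-0.18, -0.50 and -0.63) and of Il2rg, Il15ra and Jak3 in TCF-1 cKO (-1.19, -0.48 and -1.19). Of these, Jak3 in WT (adjusted p = 0.00773) and Il2rg and Jak3 in TCF-1 cKO (1.41e-06 and 2.56e-05) were called lower. The others were not called. Relative to the CD3 chains, which rose themselves, 330 genes were higher after transplant and 11838 lower in WT, against 368 and 9325 in TCF-1 cKO. The direction of Il2ra and Il2rb (higher) and Il4ra (lower) was the same under every scaling in both genotypes, but with the CD3 chains set equal Il2rb in TCF-1 cKO (0.21, adjusted p = 0.229) was not called. Nor were Il7r (0.73, adjusted p = 0.248) and Il15ra (0.09, 0.841) in WT. The call of Jak1 in WT was lost without WT Pre-Tx replicate 1 or 3 or WT Post-Tx replicate 2 or 3 (adjusted p = 0.0532, 0.0723, 0.0585 and 0.121), and without WT Pre-Tx replicate 2 its log2 fold change was 1.72. In TCF-1 cKO the call of Jak1 was lost without any of the 6 libraries, and that of Il15ra without any but Post-Tx replicate 1.

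**Figure D2:**
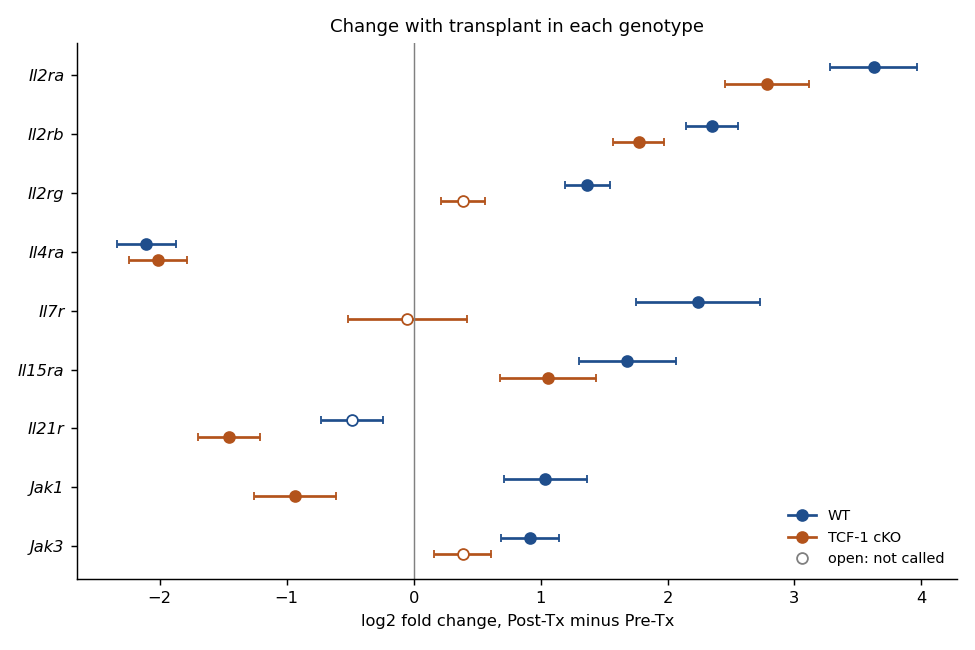
Log2 fold change from Pre-Tx to Post-Tx of each gene in WT and TCF-1 cKO, with bars of 1 SE and open points where the adjusted p was not under 0.05. Il2ra and Il2rb lie to the right and Il4ra to the left of 0 in both genotypes, under every scaling tried, whereas Jak1 lies on opposite sides (1.04 in WT and -0.93 in TCF-1 cKO) with TMM and on the left in both with the CD3 chains set equal.

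The genotype comparisons set TCF-1 cKO libraries against WT libraries within a stage. Loss of TCF-1 and a different cell make-up of the libraries cannot be told apart in them. Before transplant, Jak1 and Il7r were upregulated in TCF-1 cKO and no gene of the 9 was called lower. In this comparison 14.3% of 17021 genes tested, or 2428, were called, 8.55% higher and 5.72% lower. The number called was 17, 2447 and 1089 without WT Pre-Tx replicates 1, 2 and 3, and 558, 1067 and 1250 without those of TCF-1 cKO Pre-Tx. Jak1 was 2.34-fold higher (log2 fold change 1.23, SE 0.32, adjusted p = 0.0319) and Il7r 2.31-fold higher (1.21, 0.37, 0.0491). The T cell markers ran the other way, with 7 of 10 lower, and 6 of 12 B cell markers were higher.

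The other seven genes were not called before transplant. Il2rg and Il15ra, whose TPM did not overlap, had log2 fold changes of 0.26 (SE 0.17, adjusted p = 0.296) and 0.30 (0.43, 0.649). Jak3, whose TPM were lower in every TCF-1 cKO library, had a log2 fold change of -0.61 (SE 0.22, adjusted p = 0.0746). The TPM of 5 of the 9 genes did not overlap between the genotypes, 4 higher and 1 lower, where 39.0% of all genes tested did not, 23.4% higher and 15.6% lower. Il2ra (log2 fold change 0.15, adjusted p = 0.861), Il2rb (-0.21, 0.437), Il4ra (-0.43, 0.198) and Il21r (0.20, 0.517) completed the set. The median of the 9 genes was 0.20, beside -0.11 over all genes tested.

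The Pre-Tx calls depended on single libraries and on scaling. Il7r was lost without any of the 6 libraries (adjusted p from 0.0662 to 0.145). Jak1 was lost without any but WT Pre-Tx replicate 2 (adjusted p from 0.0538 to 0.139), and without that library it stood at 1.68. With upper-quartile scaling Jak1 (0.88, adjusted p = 0.0670) and Il7r (0.84, 0.110) were not called, and Il4ra (-0.78, 0.0385) and Jak3 (-0.97, 0.0176) were called lower. Over all genes, 1455 were called higher and 973 lower with TMM, 636 and 2085 with upper-quartile scaling and 6309 and 309 with the CD3 chains set equal, and the median gene moved from -0.11 to -0.47 and 0.84.

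After transplant, Jak3, Il2rb and Il2rg were downregulated in TCF-1 cKO, and none of the 9 genes was called higher. In this comparison 7.51% of 19287 genes tested, or 1449, were called, 3.56% higher and 3.96% lower. The number called was 14 without TCF-1 cKO Post-Tx replicate 2, 617 without replicate 3 and 1773 without replicate 1 of that group, and 99, 3895 and 825 without WT Post-Tx replicates 1, 2 and 3. Jak3 was 2.11-fold lower (log2 fold change -1.08, SE 0.23, adjusted p = 0.0178), Il2rb 1.66-fold lower (-0.73, 0.22, 0.0436) and Il2rg 1.60-fold lower (-0.67, 0.21, 0.0475). These genes encode the kinase of the shared chain, the chain common to the IL-2 and IL-15 receptors, and the shared chain itself. Of the T cell markers, 8 of 10 were called lower too, among them Cd3e (log2 fold change -0.97, SE 0.22, adjusted p = 0.0215).

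The other six genes had negative log2 fold changes and were not called. Il2ra stood at -0.66 (SE 0.24, adjusted p = 0.0749), Il21r at -0.72 (0.25, 0.0657) and Jak1 at -0.72 (0.24, 0.0607). Il7r stood at -1.06 (SE 0.50, adjusted p = 0.187), with TCF-1 cKO Post-Tx replicate 3 apart from its group, and without that library it was called at -1.79 (adjusted p = 0.00368). Il4ra (-0.28, adjusted p = 0.383) and Il15ra (-0.27, 0.570) had the smallest values. The TPM of Il2ra, Il2rb, Il2rg and Jak3 were lower in every TCF-1 cKO library than in any WT library, where 36.6% of all genes tested did not overlap, 29.0% higher and 7.56% lower. The median of the 9 genes was -0.72, beside 0.09 over all genes tested.

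The downward direction held for all 9 genes with TMM, and setting the CD3 chains equal turned it for Il2ra (0.22), Il2rb (0.15), Il2rg (0.19), Il4ra (0.60), Il15ra (0.66), Il21r (0.17) and Jak1 (0.10) and left none called. Relative to the CD3 chains, Il7r and Jak3 stayed below 0, with Jak3 at -0.21 (adjusted p = 0.309). With upper-quartile scaling only Jak3 of the 9 was called, and Il4ra (0.0094) and Il15ra (0.041) turned. Over all genes, 686 were called higher and 763 lower with TMM, 517 and 124 with upper-quartile scaling and 3922 and 21 with the CD3 chains set equal, and the median gene moved from 0.09 to 0.37 and 0.95. Il2rb was not called without TCF-1 cKO Post-Tx replicate 2 or 3 or WT Post-Tx replicate 1 or 3 (adjusted p = 0.193, 0.126, 0.148 and 0.0985). Il2rg stayed called only when WT Post-Tx replicate 2 was the library left out (adjusted p from 0.0570 to 0.200 for the others), and Jak3 was not called without TCF-1 cKO Post-Tx replicate 2 or 3 or WT Post-Tx replicate 1 (adjusted p = 0.133, 0.0536 and 0.0630). By DESeq2, 7 of the 9 genes were called lower, and 3785 of all 19287 genes tested were called, 1879 of them lower.

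**Figure D3:**
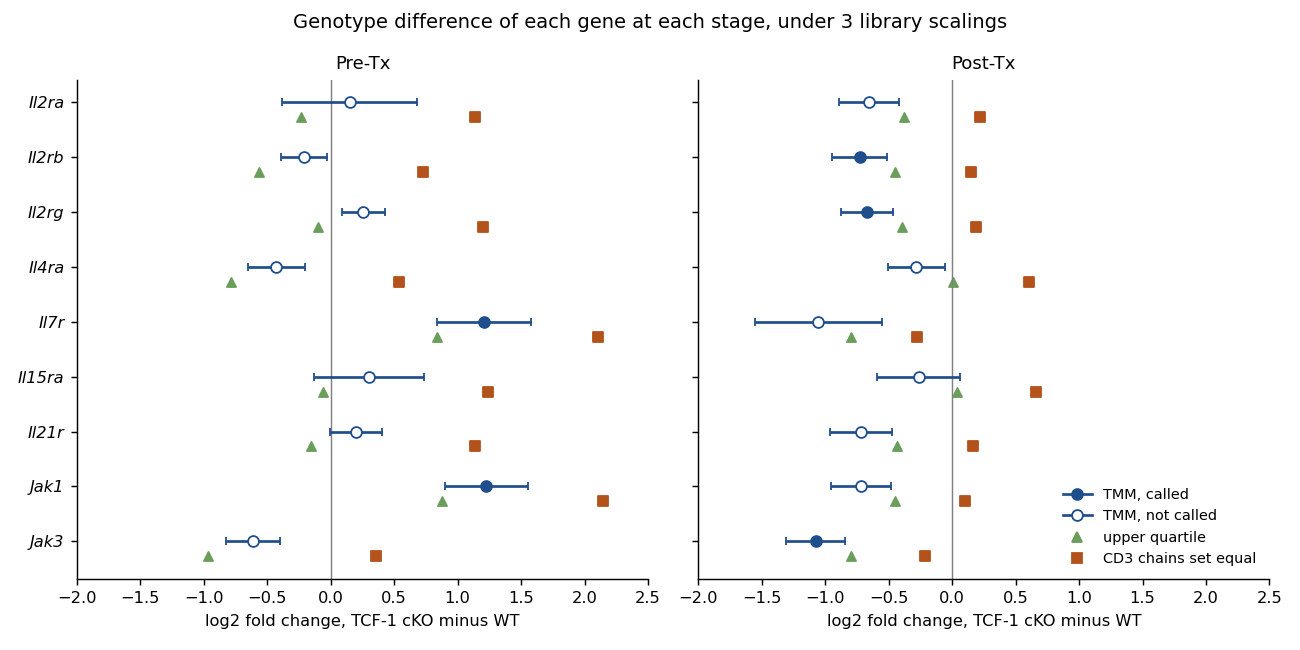
Log2 fold change of TCF-1 cKO against WT for each gene before (left) and after transplant (right), with bars of 1 SE for TMM scaling (filled points are called) and smaller marks for 2 other library scalings. After transplant every TMM point lies to the left of 0, and the squares, with the CD3 chains set equal, lie to the right of 0 for 7 of the 9 genes.

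The change of the genotype difference from Pre-Tx to Post-Tx was tested as the interaction in all 12 libraries. It was negative for 8 of the 9 genes and called for 4, all downward, where 28.5% of all genes tested were called, 16.8% higher and 11.7% lower. Jak1 had the smallest adjusted p, with mean TPM above WT before transplant and below it after (interaction -1.97 on the log2 scale, SE 0.46, adjusted p = 0.00803). Il2rg (-0.98, 0.25, adjusted p = 0.0100), Il7r (-2.29, 0.67, 0.0235) and Il21r (-0.97, 0.34, 0.0420) were called as well. Il2ra (-0.84, adjusted p = 0.150), Il2rb (-0.57, 0.118), Il15ra (-0.62, 0.367), Jak3 (-0.53, 0.206) and Il4ra (0.09, 0.844) were not. The median of the 9 genes was -0.84, beside 0.37 over all genes tested. The interaction of the olfactory receptor genes ran the other way, with 356 of 704 tested called higher and 0 lower, and their part in that of the 9 genes was not tested. Jak1 and Il2rg stayed called whichever library was left out, Jak1 was called under all 9 settings and Il2rg under 8. The call of Il7r was lost without TCF-1 cKO Pre-Tx replicate 1 or 3, TCF-1 cKO Post-Tx replicate 2 or WT Post-Tx replicate 3 (adjusted p from 0.0503 to 0.0593). That of Il21r was lost without TCF-1 cKO Pre-Tx replicate 1 or 3, WT Pre-Tx replicate 1, TCF-1 cKO Post-Tx replicate 2 or WT Post-Tx replicate 1 or 3 (adjusted p from 0.0677 to 0.117). With upper-quartile scaling only Jak1 was called of the 9, all genes called lower went from 2509 to 753 and those called higher from 3603 to 4839, and the median gene moved to 1.05.

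A share within a library does not depend on how libraries are scaled. The summed TPM of the 6 private chains was 355 ± 52.2 in WT Pre-Tx, 412 ± 55.7 in TCF-1 cKO Pre-Tx, 979.7 ± 102 in WT Post-Tx and 744 ± 49.9 in TCF-1 cKO Post-Tx (mean ± SD, n = 3 each). Before transplant 3 chains held most of it when all transcripts were counted. In WT Pre-Tx, Il21r held 36.0%, 34.8% and 31.2%, Il2rb 31.9%, 29.1% and 30.6%, and Il4ra 25.8%, 31.0% and 34.0%. Transcripts annotated as protein-coding held a mean of 96.3% of the Il21r TPM and 100% of the Il2rb TPM in WT Pre-Tx. They held only 12.8% of the Il4ra TPM there and 13.3% in TCF-1 cKO Pre-Tx. On these transcripts alone the share of Il4ra was thus smaller. After transplant Il2rb alone held 73.7%, 70.1% and 70.3% in WT and 75.3%, 70.3% and 66.0% in TCF-1 cKO. Il4ra held a mean share of 3.54% ± 0.30 in WT Post-Tx and 4.87% ± 1.37 in TCF-1 cKO Post-Tx, and Il21r 11.7% ± 1.23 and 11.7% ± 1.496 (SD, n = 3). The shares of Il2rb, Il4ra and Il21r did not overlap between the stages in either genotype (exact two-sided permutation p = 0.1, the smallest that 3 libraries against 3 allow).

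Between the genotypes, the shares of Il2rb and Il21r after transplant differed by less than the spread between replicates. The difference of TCF-1 cKO minus WT was -0.86 percentage points for Il2rb and -0.05 percentage points for Il21r (exact permutation p = 0.9 for both). Il2ra held 3.38% ± 0.06 in WT Post-Tx and 3.70% ± 0.15 in TCF-1 cKO Post-Tx (SD, n = 3), and these did not overlap (exact permutation p = 0.1). Before transplant, Il4ra held less in TCF-1 cKO (23.5% ± 0.38 against 30.3% ± 4.13), and Il21r (40.1% ± 2.94 against 34.0% ± 2.49), Il7r (6.54% ± 1.68 against 2.79% ± 1.31) and Il15ra (2.78% ± 0.36 against 1.81% ± 0.39) more, each without overlap (exact permutation p = 0.1). Of 36 exact tests of shares and ratios, 21 reached the smallest p and the smallest adjusted p was 0.171, so none passed the threshold, which no design of this size could reach.

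**Figure D4:**
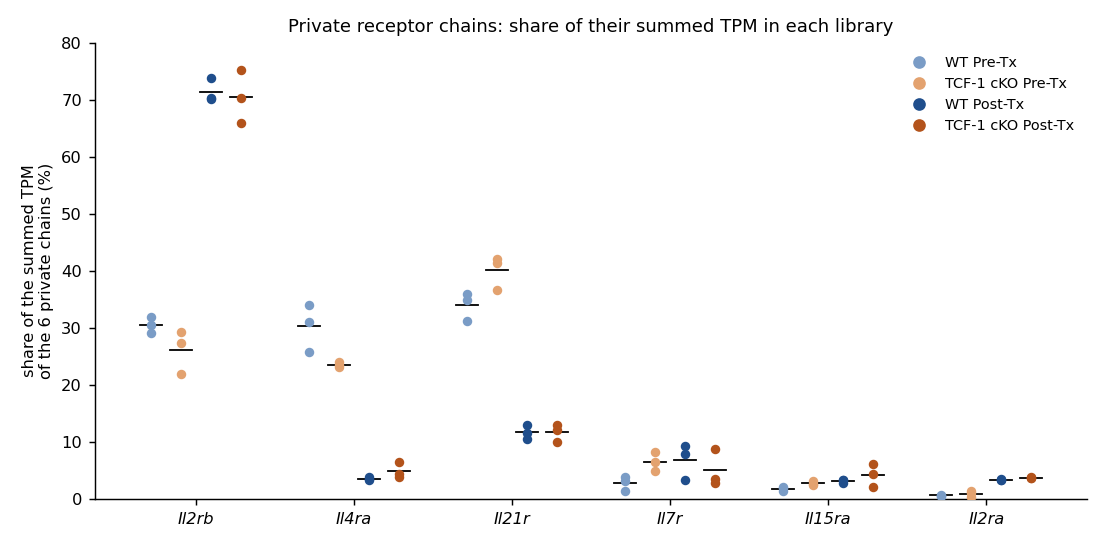
Share of each private chain in the summed TPM of the 6 private chains, in percent and over all transcripts. Each library is 1 point, with a line at each group mean. Il2rb stands at 22.0% to 31.9% in the Pre-Tx libraries and at 66.0% to 75.3% in the Post-Tx libraries, and Il4ra and Il21r stand lower in the Post-Tx libraries.

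Partner ratios compare, within a library, the bulk RNA of genes whose proteins act together. They do not measure protein or assembled receptors, and the RNA of the partners may come from different cells. The log2 ratio of Il2rb to Il2rg TPM was -2.46 ± 0.10 Pre-Tx and -1.55 ± 0.16 Post-Tx in WT, and -3.00 ± 0.17 and -1.61 ± 0.12 in TCF-1 cKO (SD, n = 3, no overlap between the stages). The genotypes were apart before transplant (exact permutation p = 0.1) and overlapped after it (p = 0.7 by the same exact test). For the kinases, the log2 ratio of Jak3 to Jak1 TPM was -0.38, -0.55 and 0.87 in WT Pre-Tx, against -2.12, -1.81 and -1.65 in TCF-1 cKO Pre-Tx. Every TCF-1 cKO library thus held less Jak3 per Jak1 before transplant (exact permutation p = 0.1). After transplant the ratio was 0.05, -0.50 and -0.31 in WT and -0.48, -0.31 and -1.12 in TCF-1 cKO, and the genotypes overlapped (exact permutation p = 0.5). Il2ra to Il2rb stood at -4.40 ± 0.06 in WT Post-Tx and -4.25 ± 0.04 in TCF-1 cKO Post-Tx, without overlap (SD, n = 3, exact permutation p = 0.1).

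The deposited values are given per transcript, and much of the TPM of several receptor genes was assigned to transcripts other than the one with the longest coding sequence. Il4ra and Il21r are shown in detail. Mouse Il4ra is known to give a soluble receptor from a transcript with an added exon that carries a stop codon ahead of the membrane-spanning segment. In GENCODE M21 the added exon of Il4ra-205 has 114 bases (chr7:125571934-125572047). Il4ra-205 has 690 coding bases against 2430 in Il4ra-201 and is annotated as a target of nonsense-mediated decay. The other case is Il21r-202, which lacks a coding exon of 97 bases (chr7:125629738-125629834) that Il21r-201 has and that encodes the membrane-spanning segment, and which has 804 coding bases against 1587. The start of the first exon and the whole of the second are shown on the plus strand, from GRCm38, because they mark which form of receptor a transcript can encode, and the capitals mark the stop codon that follows 17 bases into the exon.
Il4ra-205 exon, chr7:125571934-125571963: caagtaatgaaaatctgTGActgagtgacc
Il21r-201 exon, chr7:125629738-125629834: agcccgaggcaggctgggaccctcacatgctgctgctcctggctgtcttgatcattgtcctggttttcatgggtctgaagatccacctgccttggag

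Il4ra-205 held 88.6%, 84.5% and 84.5% of the Il4ra TPM in WT Pre-Tx, against 81.3%, 81.3% and 81.9% in TCF-1 cKO Pre-Tx. After transplant it held 88.6%, 92.6% and 84.8% in WT and 89.1%, 84.4% and 79.0% in TCF-1 cKO. It was thus the main Il4ra transcript in every library, and the full-length Il4ra-201 held 6.86% to 16.5%. Both transcripts were lower after transplant, Il4ra-205 from a mean of 92.0 to 30.6 TPM in WT and from 79.1 to 30.1 TPM in TCF-1 cKO, and Il4ra-201 from 13.9 to 3.07 TPM and from 13.0 to 4.26 TPM.

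Il21r-201 held 57.0% to 73.3% of the Il21r TPM and Il21r-202 held 23.0% to 39.7%. The share of Il21r-202 was 23.0%, 27.3% and 33.4% in WT Pre-Tx, against 29.6%, 28.1% and 39.4% in TCF-1 cKO Pre-Tx. After transplant it was 39.7%, 32.6% and 31.1% in WT and 32.0%, 25.2% and 27.7% in TCF-1 cKO. The genotypes overlapped at both stages. Each pair of transcripts also differs at its ends, so the split by the pseudoaligner need not come from these exons. Il2rg showed no such split, and Il2rg-201 held 94.9% to 96.9% of its TPM. For Il2rb, both transcripts carry the same 1617 coding bases, and Il15ra-201, the longest coding transcript, ranged from 30.9% to 77.6% of the Il15ra TPM. Il2ra-202, with 132 coding bases against 804 in Il2ra-201, held 7.53%, 31.5% and 13.8% of the Il2ra TPM in WT Pre-Tx, against 58.7%, 24.4% and 10.4% in TCF-1 cKO Pre-Tx, and 7.80% to 18.5% after transplant. In TCF-1 cKO Pre-Tx replicate 1, 3.46 of the 5.89 TPM of Il2ra thus came from this short transcript.

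**Figure D5:**
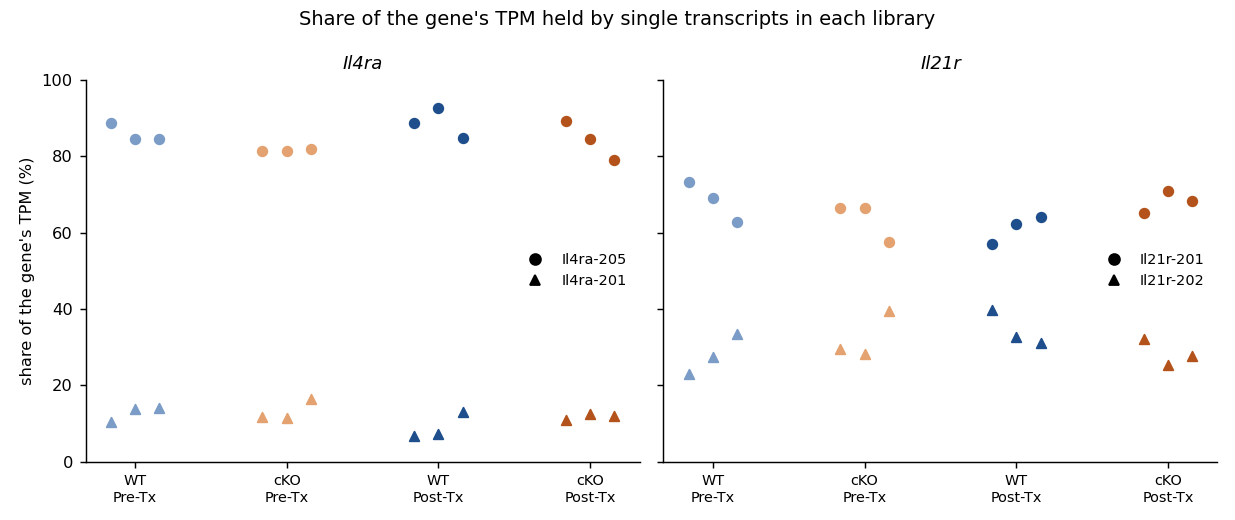
Share of the Il4ra TPM (left) and of the Il21r TPM (right) held by 2 transcripts of each gene in every library, in percent. Il4ra-205 (circles, left) lies at 79.0% or higher in all 12 libraries, and Il21r-202 (triangles, right) between 23.0% and 39.7%.

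The rest of the pathway was described through 46 further genes, namely ligands, other receptor chains and JAKs, STATs, inhibitors, adaptors and target genes. With transplant, 18 of 45 tested were upregulated and 5 downregulated in WT, and 9 were upregulated and 10 downregulated in TCF-1 cKO, beside the shares of all genes given above for these comparisons. Cish, an inhibitor that STAT5 induces, was named after its values were seen. It rose from 5.06, 3.96 and 5.41 TPM in WT Pre-Tx to 75.8, 42.9 and 50.7 TPM in WT Post-Tx (log2 fold change 3.06, SE 0.31, adjusted p = 1.27e-06). In TCF-1 cKO it rose from 8.01, 4.56 and 7.40 TPM to 65.6, 59.3 and 57.2 TPM (log2 fold change 2.68, SE 0.31, adjusted p = 5.9e-06).

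Before transplant, 5 of 40 tested genes of the pathway were higher in TCF-1 cKO and 1 was lower, with a median log2 fold change of 0.15. Over all genes tested 14.3% were called and the median was -0.11, so that the share called was near that of all genes. Mcl1, which protects cells from apoptosis and is required for T cell survival, stood at 14.5, 15.6 and 9.37 TPM in WT Pre-Tx and at 30.2, 43.1 and 32.8 TPM in TCF-1 cKO Pre-Tx (log2 fold change 1.19, SE 0.26, adjusted p = 0.0167). Pik3r1, a regulatory subunit of PI3-kinase, was higher by 1.17 (SE 0.29, adjusted p = 0.0240) and Pias1, which encodes a SUMO ligase, by 1.19 (0.31, 0.0300). The other two called higher were the survival gene Bcl2 and the cyclin gene Ccnd2. Ccnd3, a cyclin gene of dividing lymphocytes, was lower by -0.69 (SE 0.19, adjusted p = 0.0366).

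After transplant, none of 44 tested genes of the pathway was higher in TCF-1 cKO and 3 were lower, with a median log2 fold change of -0.45. Over all genes tested 7.51% were called and the median was 0.09, so that here too the share called was near that of all genes. Stat5a, the main messenger of the IL-2 receptor together with Stat5b, stood at 40.6, 37.9 and 29.9 TPM in WT Post-Tx and at 26.1, 25.6 and 26.3 TPM in TCF-1 cKO Post-Tx (log2 fold change -0.80, SE 0.23, adjusted p = 0.0429). Every TCF-1 cKO library stood below every WT library. Myc, which drives growth of activated T cells, was lower by -0.89 (SE 0.25, adjusted p = 0.0376) and Ptpn6, a phosphatase that dampens cytokine and antigen receptor signals, by -0.82 (0.21, 0.0318). The interaction was called for 16 of 45 genes, 15 of them downward, where 28.5% of all genes tested were called, 16.8% higher and 11.7% lower, and the exception was the ligand gene Il4. All of these values use TMM scaling, as for the receptors.

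The genes whose pattern over the 12 libraries was most like a member were found among 8980 protein-coding genes, by the root mean square difference of centred log2 CPM. The closest to Il2rb were Nkg7 (0.13), a granule protein gene of cytotoxic lymphocytes, and Cd3g (0.16), a CD3 chain. Selplg (0.13) and Fxyd5 (0.19) were closest to Jak3, Itgal (0.14) and Btbd19 (0.15) to Il2rg, Cyth1 (0.15) and Rhoh (0.16) to Il21r, and Jtb (0.15) and Rbm43 (0.17) to Jak1. Zfp36 (0.22) and Pqlc2 (0.27) followed Il4ra. The remaining members had looser neighbours, Cnih1 (0.31) and Slc25a20 (0.32) for Il15ra, Ngly1 and Ap1s2 (0.32 each) for Il7r, and Atp10a (0.35) and Rhoc (0.39) for Il2ra. Among the members themselves, Il2rg and Jak3, whose proteins bind each other, were the closest pair (0.40), followed by Il2rg and Il15ra (0.45). All distances share the same libraries and scaling, and the transplant contrast makes up much of each pattern.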

How the data were processed

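The authors sorted cells into TRizol, extracted total RNA, amplified it with the SMARTseq HT kit, built Nextera XT libraries, sequenced paired ends and ran kallisto 0.46.2, per the labels and methods. The deposited files list 117497 transcripts, each with its estimated count and TPM. The estimated count is the number of read pairs that kallisto assigned, with no normalization by the authors, and TPM values are those counts scaled by the authors' kallisto run for effective length and library total. Which transcript set was used is not stated in these sources, and the labels name mm9. Identifiers stripped of their version matched GENCODE M21 (GRCm38, whose coordinates are printed) for 116428 transcripts (99.1%), and the 1069 left out held 0.282% to 0.386% of the counts of a library.

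Counts were summed per gene and rounded. edgeR 4.0.16 (R 4.3.3) was used with TMM scaling, its filter on low counts and its robust quasi-likelihood test, after it was tested on simulated data. The simulated data held as many raised as lowered genes, so they did not test the choice of scaling. Genotypes were compared in the 6 libraries of a stage, and transplant and interaction in all 12. A gene was called at a Benjamini-Hochberg adjusted p under 0.05 over all genes tested, and the standard error (SE) is the log2 fold change divided by the square root of F. CPM values divide each count by its library's total. Shares and ratios of TPM within a library were compared by exact two-sided permutation. Alternatives were upper-quartile scaling, scaling to the CD3 chains, DESeq2 1.42.0, no filter, counts from TPM and length, limma 3.58.1 on log2(TPM + 1) and log2(TPM + 0.1), the replicate number as a block, other sets of libraries in the fit, each library left out, and for shares counts per kilobase and protein-coding transcripts only. Python 3.11.15 with scipy 1.17.1, numpy 2.4.6, pandas 2.3.3 and matplotlib 3.10.9 served for tables and plots. The 9 genes, the pathway and marker lists and the tests were chosen with earlier results of these data known. Beyond the 9 genes, the text names up to 3 pathway genes with the smallest adjusted p in each direction of a genotype comparison, and the 2 protein-coding genes, among those averaging 10 CPM or more, most like each member. Bcl2, Ccnd2, Il4 and Cish were named after their values were seen. Library depth limits precision by counting error, which weighs most on Il2ra (109 to 337 counts a library before transplant) and Il15ra (157 to 370).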

Additional observations from a re-analysis of the deposited data

Results flagged for a closer look

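The genotype difference changed between the stages for 4 of the 9 genes, by the interaction of genotype and transplant in all 12 libraries (edgeR's quasi-likelihood test, adjusted over all genes tested). Over all genes tested 28.5% were called, 16.8% higher and 11.7% lower. On the log2 scale the difference of TCF-1 cKO from WT was lower after transplant than before it by -1.97 for Jak1 (adjusted p = 0.00803), -0.98 for Il2rg (0.0100), -2.29 for Il7r (0.0235) and -0.97 for Il21r (0.0420). With TMM all 4 had a positive genotype difference before transplant and a negative one after it. Before transplant Il2rg (0.26, adjusted p = 0.296) and Il21r (0.20, 0.517) were not called, and with upper-quartile scaling they turned (-0.10 and -0.16). After transplant, only Il2rg of the 4 was called. The calls of Jak1 and Il2rg held with each library left out in turn, and those of Il7r and Il21r were lost without some single libraries. With upper-quartile scaling only Jak1 stayed called.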

How the results depend on the processing

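Of the settings tried, library scaling changed most, and where a value changed its cause was not tested. With the CD3 chains set equal, the members called numbered 6 Pre-Tx (all higher), 0 Post-Tx and 5 with transplant in WT (2 higher and 3 lower). All genes called then numbered 6618 of 17021, 3943 of 19287 and 12168 of 21434 in the same order. Values turned Pre-Tx for Il2rb (0.73), Il4ra (0.54) and Jak3 (0.35). They turned Post-Tx for Il2ra (0.22), Il2rb (0.15), Il2rg (0.19), Il4ra (0.60), Il15ra (0.66), Il21r (0.17) and Jak1 (0.10). With transplant they turned for Il2rg (-0.18), Jak1 (-0.50) and Jak3 (-0.63) in WT and for Il2rg (-1.19), Il15ra (-0.48) and Jak3 (-1.19) in TCF-1 cKO. Of these last, Jak3 in WT and Il2rg and Jak3 in TCF-1 cKO were called lower. With upper-quartile scaling 1 member was called Post-Tx and 1 in the interaction, where all genes called numbered 641 of 19287 and 5592 of 21434. Values turned for Il2ra (-0.24), Il2rg (-0.10), Il15ra (-0.062) and Il21r (-0.16) Pre-Tx and for Il4ra (0.0094) and Il15ra (0.041) Post-Tx. They also turned for Il7r with transplant in TCF-1 cKO (0.33), and for Il2rb (0.10), Il15ra (0.076) and Jak3 (0.16) in the interaction. Post-Tx, 7 members were called by DESeq2, 6 with no filter, 1 on log2(TPM + 1), 0 on log2(TPM + 0.1) with limma, where Il4ra turned on both (0.035), and 1 with all 12 libraries in the fit, where all genes called numbered 3785, 2415, 856, 174 and 317. Pre-Tx, 1 was called on log2(TPM + 0.1) and 1 with all 12 libraries, where all genes called numbered 1882 of 14368 and 3712 of 21434. Il7r with transplant in TCF-1 cKO turned with counts from TPM and length (0.076), log2(TPM + 1) (0.32) and log2(TPM + 0.1) (0.33). The interaction of Il4ra turned by DESeq2 (-0.033), with no filter (-0.19) and with counts from TPM and length (-0.083). With protein-coding transcripts only, the Post-Tx genotype difference turned for the shares of Il2rb (0.0047 percentage points) and Il21r (0.18).

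With the replicate number as a block 7 members were called Post-Tx and 2 Pre-Tx, and all genes called numbered 3544 and 2202 against 1449 and 2428 without it. Residuals of libraries with the same number correlated from -0.27 to 0.25 between groups. Between WT and TCF-1 cKO Post-Tx these correlations were -0.00019, 0.25 and 0.11 for replicates 1, 2 and 3. The labels name no pairs, so the numbers were not read as pairs, and an effect shared by libraries of the same number was not tested. With each library left out in turn, the members called ranged from 0 to 1 Pre-Tx, 0 to 5 Post-Tx, 7 to 8 with transplant in WT, 4 to 5 in TCF-1 cKO and 2 to 5 in the interaction. All genes called ranged from 17 to 2447, 14 to 3895, 2759 to 5186, 2807 to 4820 and 3085 to 7311 in the same order, with the lowest counts without WT Pre-Tx replicate 1, TCF-1 cKO Post-Tx replicate 2, WT Post-Tx replicate 3 and, for the last pair, TCF-1 cKO Post-Tx replicate 2. With transplant in TCF-1 cKO it was 3254 without Pre-Tx replicate 3, and in the interaction 3595 without WT Post-Tx replicate 3. Values turned for Il2ra Pre-Tx (-0.041 to 0.55), Il4ra in the interaction (-0.17 to 0.21) and Il7r with transplant in TCF-1 cKO (-0.75 to 0.19). Post-Tx genotype differences turned for the shares of Il2rb (-3.22 to 1.41 percentage points) and Il21r (-0.69 to 0.77) and for the log2 ratio of Il2rb to Il2rg (-0.14 to 0.022), and the Pre-Tx one for Il2ra to Il2rb (-0.035 to 1.28).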
